A study of Homo sapiens with 2 samples.

Results

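The insulin-like growth factor (IGF) binding proteins IGFBP1 to IGFBP7 and the receptors IGF1R, IGF2R and INSR were read in 2 RNA-seq libraries, 1 from cells given the compound D16 and 1 from control cells. These 10 genes were taken by symbol from a table of 60612 genes, and all 10 were found there. The cells were MDA-MB-231, a human triple-negative breast cancer line with little estrogen receptor, progesterone receptor or HER2. The D16 culture received 24 µM of D16, which the labels describe as a chalcone, for 48 h. The control culture was kept in normal medium without D16, and the labels name no solvent control. No time in culture was recorded here for the control. Both cultures were grown in RPMI medium with fetal serum, penicillin and streptomycin. The question put to the data was which genes differed between D16 and control cells. Because n = 1 library in each group, replicates could not be used to check any difference, and no p-value was computed. The family was chosen by its FPKM values in these same 2 libraries, so its values are a description of them and support nothing further.

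IGF1 and IGF2 are secreted growth factors that act mainly through IGF1R, a tyrosine kinase closely related to the insulin receptor INSR, and both receptors signal to the PI3K and AKT kinases. IGF2R has no kinase: it carries IGF2 to lysosomes, and it also sorts lysosomal enzymes as the cation-independent mannose phosphate receptor. IGFBP1 to IGFBP6 bind IGFs tightly and can hold them away from the receptor or carry and store them, while IGFBP7 binds IGFs only weakly. In breast cancer cells, IGF signalling is known for its effect on growth and survival, and the binding proteins are also known to act without IGFs, on integrins and the matrix.

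Values are given as FPKM, a fragment count scaled to transcript length and library size, as the authors deposited them, so levels of different genes can be set side by side per length. The deposited estimated counts summed to 73303902 in the D16 library and 72108404 in the control library. About 4 counts stand for 1 read pair, and each 95% interval is an exact (Clopper-Pearson) one on read pairs that covers counting error only. A gene was counted as higher or lower when it averaged 1 FPKM or more over both libraries and log2((D16 FPKM + 1) / (control FPKM + 1)) was at least 1 in size, which is 2-fold on that scale. The choice of scale between the libraries moved the median of all 11830 genes at that level from 0.08 as deposited to 0.23 with both libraries rescaled to equal sums of FPKM, and to -0.07 with centring on genes averaging 5 FPKM or more. Of all genes 2-fold apart, 47.8% were on the higher side as deposited, 66.5% with equal sums and 31.0% after centring. The receptor status of the line was read as a check. PGR was listed at 0 in both libraries, ESR1 stood at 0.00935 FPKM in the D16 library and 0.0192 FPKM in the control library, and ERBB2 at 5.72 FPKM in the D16 library and 5.38 FPKM in the control library. Of 5 markers listed as present in the line, all 5 averaged 1 FPKM or more. VIM stood at 259 FPKM with D16 and 502 FPKM in the control, CD44 at 25.6 FPKM in both, and EGFR at 20.5 FPKM with D16 and 25.9 FPKM in the control. KRT18 stood at 60.4 FPKM with D16 and 67.7 FPKM in the control, and CAV1 at 73.7 FPKM with D16 and 55.1 FPKM in the control.

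The promoters are shown for IGFBP4, the most abundant of the genes that were lower with D16, and for the related receptors IGF1R and INSR, which stayed within 1.5-fold. RefSeq's promoter table on GRCh38.p14 held 8 of the 10 genes, all but IGFBP1 and IGFBP7. Each sequence is the 250 bases before the annotated start, 5′ to 3′ on the gene's strand, with TATA boxes (TATAAA) and GC boxes (GGGCGG, or CCGCCC where the match lies on the other strand) in capitals. The windows are chr17:40443200-40443449 on the plus strand for IGFBP4, chr15:98648289-98648538 on the plus strand for IGF1R and chr19:7294415-7294664 on the minus strand for INSR.
IGFBP4: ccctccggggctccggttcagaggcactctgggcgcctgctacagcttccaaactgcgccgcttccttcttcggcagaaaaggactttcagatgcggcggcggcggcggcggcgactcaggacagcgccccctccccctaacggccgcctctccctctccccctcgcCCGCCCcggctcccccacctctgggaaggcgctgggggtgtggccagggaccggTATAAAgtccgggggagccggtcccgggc
IGF1R: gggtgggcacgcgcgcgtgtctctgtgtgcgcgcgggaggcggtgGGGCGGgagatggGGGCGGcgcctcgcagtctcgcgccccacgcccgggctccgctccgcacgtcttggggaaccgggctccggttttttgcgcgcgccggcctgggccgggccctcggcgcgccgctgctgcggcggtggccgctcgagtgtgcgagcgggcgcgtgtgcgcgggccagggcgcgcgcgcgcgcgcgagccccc
INSR: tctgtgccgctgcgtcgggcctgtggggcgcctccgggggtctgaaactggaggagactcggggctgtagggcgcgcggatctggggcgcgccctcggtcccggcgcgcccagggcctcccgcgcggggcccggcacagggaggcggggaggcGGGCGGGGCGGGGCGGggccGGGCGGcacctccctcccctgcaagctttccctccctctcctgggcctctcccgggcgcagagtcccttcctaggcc

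The IGFBP4 window holds 1 TATA box, which begins 29 bases before the start, and 1 GC box. The IGF1R window holds 2 GC boxes and the INSR window 4, of which 3 overlap each other by their last and first letters. TATAAA was found, on either strand, in 10.7% of 35116 promoter windows of this length and in 1 of the 8 windows of these genes. GGGCGG was found in 42.6% of all windows and in 7 of the 8, all but IGFBP5. The annotated start used for IGFBP6 lies 231 bp inside the gene as the deposited coordinates place it. Most of that window, with its GC box, is therefore within the gene. The G and C content ran from 56.8% in the IGFBP2 window to 81.2% in the IGF1R window, with a median of 58% over all windows. A core of the hypoxia response element, ACGTG, was found in 18.5% of all windows and in those of IGF1R and IGF2R. CAAAACA, the core that FOXO factors bind in insulin-repressed genes, was in 4.30% of all windows and in 0 of the 8, which do not include IGFBP1. The same count of 0 held for the antioxidant element core TGACNNNGC, found in 10.9% of all windows, for the AP-1 site TGANTCA, found in 6.57%, and for the cAMP element core TGACGT, found in 7.10%. These matches describe letters only, and no binding was measured.

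IGFBP4 and IGFBP1 were several-fold lower in the D16 library, while the other 3 binding proteins of 1 FPKM or more and all 3 receptors lay close to their control levels. Of the 8 genes averaging 1 FPKM or more, 2 were lower by 2-fold or more and 0 were higher by that much. Among all 11830 genes at that level, 3.97% were lower and 3.63% were higher by this measure, 7.61% in all, and nothing is read from the comparison because the genes were chosen by these values. The remaining 6 lay less than 1.5-fold from their control level, as did 75.8% of all genes. IGFBP2 and IGFBP5 averaged under 1 FPKM and were not counted. The median log2 difference of the 8 genes was -0.19, beside 0.08 over all genes. In bulk RNA, fewer cells that carry a message and less of it per cell cannot be told apart.

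**Figure D1:**
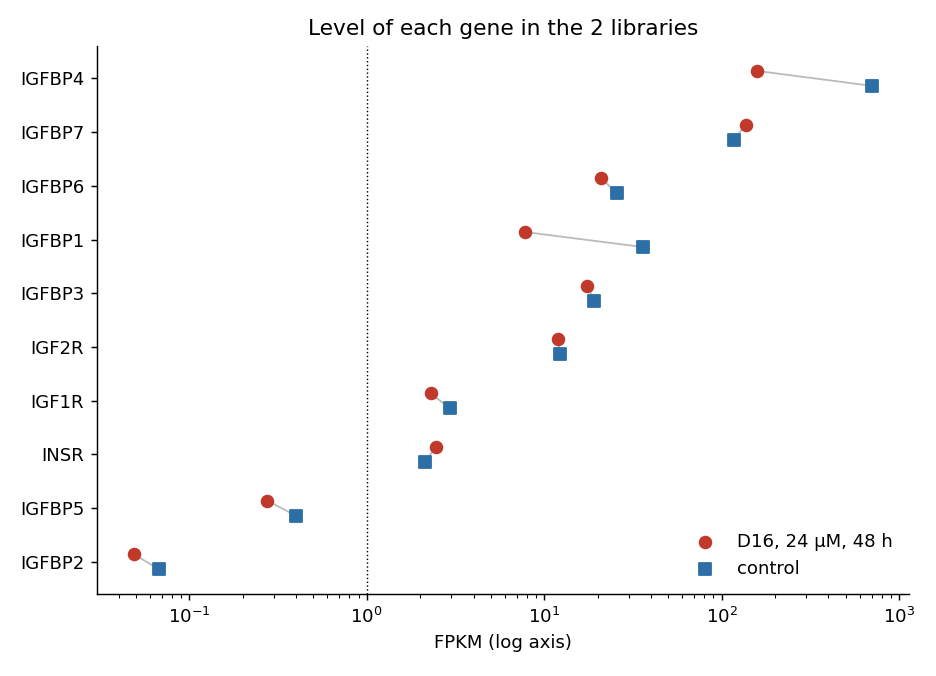
FPKM of each gene in the D16 library (circles) and the control library (squares), on a log axis, ordered by mean level, with a dotted line at 1 FPKM. IGFBP4 stood at 158 FPKM with D16 and 708 FPKM in the control, and IGFBP1 at 7.79 FPKM with D16 and 36.1 FPKM in the control, while the other pairs of points lie close together.

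IGFBP4 is secreted and is known mainly as an inhibitor of IGF action. It stood at 158 FPKM in the D16 library and at 708 FPKM in the control library, on 7634 read pairs with D16 and 32960 in the control. The level with D16 was 4.49-fold lower (95% interval 4.38 to 4.60). By FPKM it ranked 178 among all genes of the D16 library and 32 among those of the control library, so it was among the most abundant messages of the control cells. By log2 difference, which was -2.16, it ranked 41 from the lowest of 11830 genes. Coordinates of genes are those of the deposited table, and for these 10 genes they lie within 600 bp of GENCODE release 29 on GRCh38. The gene lies at chr17:40443450-40457725 on the plus strand, and its longest annotated transcript has 4 exons.

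IGFBP1 is made mainly by the liver in the body, where insulin represses it. The D16 library held it at 7.79 FPKM and the control library at 36.1 FPKM. This was 4.64-fold lower with D16 (95% interval 4.07 to 5.30), on 281 read pairs in the D16 library and 1253 in the control library. Its log2 difference of -2.08 ranked 51 from the lowest, close to that of IGFBP4, although IGFBP4 was far more abundant in both libraries. The gene lies at chr7:45888360-45893660 on the plus strand. Liver markers were at or near 0: TTR was listed at 0 in both libraries, ALB stood at 0.0122 FPKM with D16 and 0 in the control, and APOA1 at 0 with D16 and 0.361 FPKM in the control.

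IGFBP3, the main carrier of IGFs in blood, is the neighbour of IGFBP1 on chromosome 7. It lies on the opposite strand at chr7:45912245-45921274, tail to tail with IGFBP1 across 18584 bp. It stood at 17.5 FPKM in the D16 library and 19.2 FPKM in the control library, a ratio of 0.915 (95% interval 0.857 to 0.978). IGFBP3 thus kept nearly its control level where IGFBP1 did not. Within the D16 library IGFBP1 stood at 0.444 times the FPKM of IGFBP3, and within the control library at 1.89 times. This within-library ratio was 4.25-fold lower with D16 (exact conditional 95% interval 3.67 to 4.92, counting error only), and it does not depend on how the libraries are scaled. The direction of IGFBP3 alone did: its log2 difference was -0.12 as deposited and 0.05 with the libraries rescaled to equal sums.

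IGFBP7, which binds IGFs weakly and is found in the matrix around vessels, was the second most abundant binding protein in both libraries. Its level was 137 FPKM with D16 and 117 FPKM in the control, a ratio of 1.17 (95% interval 1.13 to 1.22). That was the highest ratio of the 10 genes, and it fell short of 1.5-fold. The gene lies at chr4:57030773-57110385 on the minus strand and shares 386 bp at its end with POLR2B, an RNA polymerase II subunit on the other strand. POLR2B stood at 41.6 FPKM with D16 and 36.3 FPKM in the control, a ratio of 1.15. The libraries were strand-marked, but no source used here says whether the counting used strand, and reads passing between these genes were not tested for.

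IGFBP6, which prefers IGF2 over IGF1, stood at 21.0 FPKM in the D16 library and 25.8 FPKM in the control library. The ratio was 0.812 (95% interval 0.729 to 0.905), and it stayed below 1 under each scaling tried. This gene lies at chr12:53097436-53102345 on the plus strand. IGFBP5, which binds to the matrix, was low in both libraries, with 0.275 FPKM in the D16 library and 0.398 FPKM in the control library. Its interval, 0.440 to 1.05 around a ratio of 0.691, included 1, on 39.3 read pairs with D16 and 55 in the control. IGFBP2, which holds an integrin-binding motif, was the least abundant of the 10 genes. It stood at 0.0487 FPKM in the D16 library and 0.0679 FPKM in the control library, and its ratio of 0.717 had an interval from 0.229 to 2.86. At this depth, counting error alone leaves any ratio within those intervals possible for these genes. The pair also lies tail to tail, IGFBP2 at chr2:216632828-216664436 on the plus strand and IGFBP5 at chr2:216672105-216695549 on the minus strand, 7668 bp apart, and both genes of the pair were under 1 FPKM in both libraries.

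**Figure D2:**
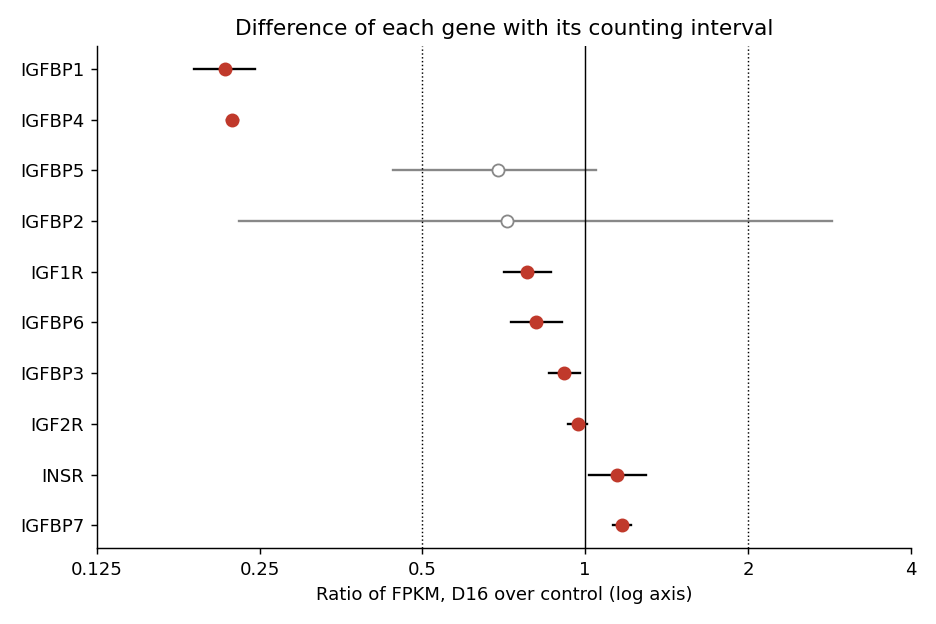
Ratio of FPKM, D16 over control, for each gene on a log axis, with bars for the 95% counting interval, a solid line at 1 and dotted lines at 0.5 and 2. IGFBP1 (0.215) and IGFBP4 (0.223) lie left of the 2-fold line, 6 filled points lie near 1, and the open points IGFBP5 and IGFBP2, averaging under 1 FPKM, have wide bars.

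The make-up of the binding protein messages differed between the libraries, with IGFBP4 the largest part in both. The 7 binding proteins summed to 341 FPKM in the D16 library and 907 FPKM in the control library, 2.66-fold lower with D16. IGFBP4 made up 46.2% of that sum with D16 and 78.1% in the control. IGFBP7 made up 40.2% with D16 and 12.9% in the control, although its own level differed by only 19.9 FPKM. IGFBP6 took 6.15% with D16 and 2.85% in the control, IGFBP3 took 5.14% with D16 and 2.11% in the control, and IGFBP1 took 2.28% with D16 and 3.99% in the control. IGFBP5 took 0.0806% with D16 and 0.0439% in the control, and IGFBP2 took 0.0143% with D16 and 0.00748% in the control. Without IGFBP4 the sum was 184 FPKM in the D16 library and 199 FPKM in the control library. IGFBP4 thus carried 97.3% of the difference between the sums. Within the D16 library IGFBP4 stood at 1.15 times the FPKM of IGFBP7, and within the control library at 6.03 times, a 5.25-fold lower ratio with D16 (exact conditional 95% interval 5.01 to 5.50, counting error only).

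**Figure D3:**
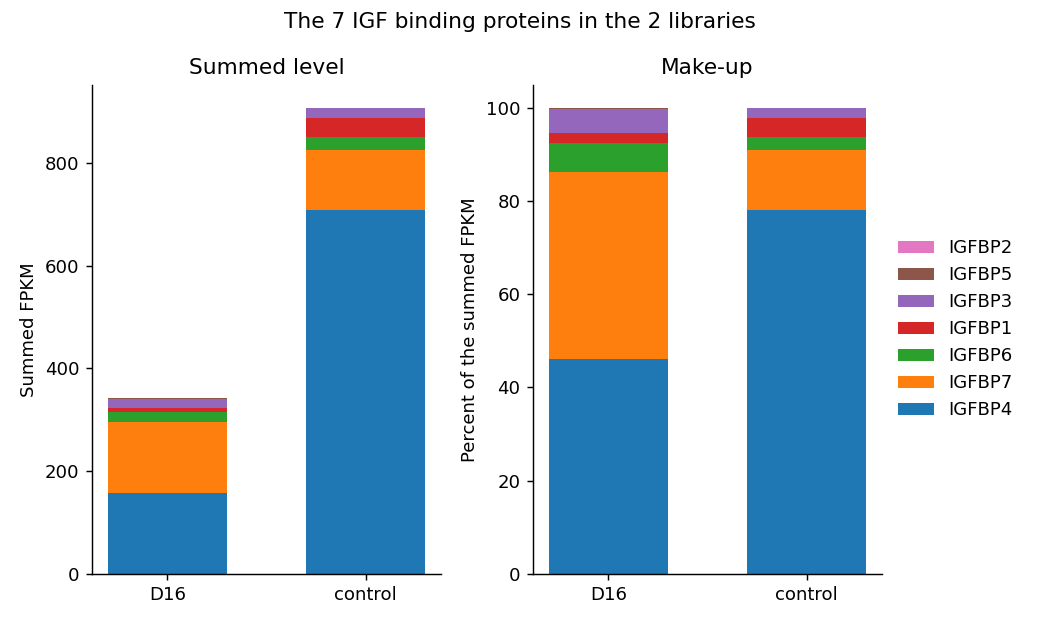
Summed FPKM of the 7 binding proteins (left) and the percent of that sum taken by each (right), in the D16 library and the control library. The sum was 341 FPKM with D16 and 907 FPKM in the control, and IGFBP4 and IGFBP7 were near equal parts only with D16, at 46.2% and 40.2%.

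All 3 receptors stayed within 1.5-fold of their control levels, with IGF2R well above IGF1R and INSR in both libraries. IGF2R was the most abundant receptor, with 11.9 FPKM in the D16 library and 12.3 FPKM in the control library. Its ratio of 0.969 had an interval from 0.930 to 1.01, and the sign of its log2 difference turned from -0.04 as deposited to 0.13 with equal sums. IGF1R stood at 2.29 FPKM with D16 and 2.93 FPKM in the control, 1.28-fold lower (95% interval 1.16 to 1.41), and its log2 difference stayed below 0 under each scaling, from -0.40 to -0.12. The insulin receptor INSR stood at 2.45 FPKM with D16 and 2.13 FPKM in the control, a ratio of 1.15 (95% interval 1.01 to 1.3). For INSR the sign of the log2 difference was not fixed either, with 0.14 as deposited and -0.01 after centring.

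INSR and IGF1R, whose products can pair into hybrid receptors, lay close to each other in the D16 library and apart in the control library. INSR stood at 1.07 times the FPKM of IGF1R in the D16 library (95% counting interval 0.955 to 1.19, which includes 1) and at 0.728 times in the control library (0.650 to 0.814). That within-library ratio was 1.47-fold higher with D16 (exact conditional 95% interval 1.25 to 1.72, counting error only). Summed over the 3 receptors, the level was 16.7 FPKM with D16 and 17.4 FPKM in the control, of which IGF2R made up 71.6% with D16 and 70.9% in the control. IGF1R lies at chr15:98648539-98964530 on the plus strand, IGF2R at chr6:159969082-160113507 on the plus strand and INSR at chr19:7112255-7294414 on the minus strand. IGF2R overlaps AL353625 on the same strand, a gene model at 0.669 FPKM with D16 and 0.229 FPKM in the control, and with the counts of both summed the IGF2R ratio stayed within its interval.

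**Figure D4:**
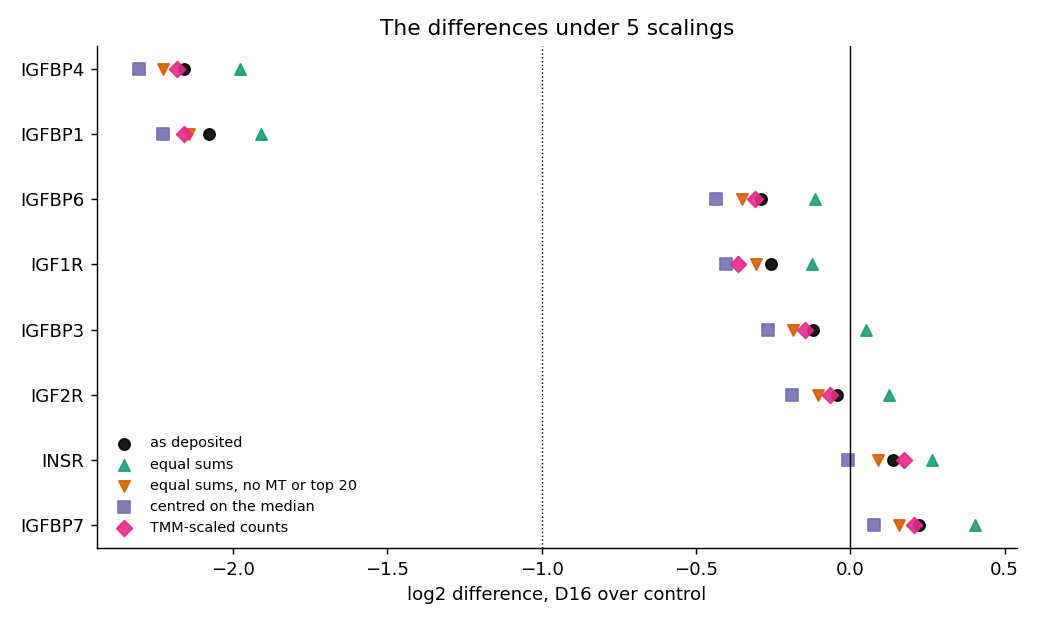
Log2 difference, D16 over control, of the 8 genes averaging 1 FPKM or more, under 5 scalings (FPKM as deposited, equal sums with and without mitochondrial and the 20 most abundant genes, centring, and TMM-scaled counts), with a solid line at 0 and a dotted line at -1. The TMM setting also changed the unit, from FPKM to counts not scaled to transcript length. IGFBP4 ran from -2.31 to -1.98 and IGFBP1 from -2.23 to -1.91, both left of -1, while IGFBP3 and IGF2R crossed 0 under equal sums and INSR under centring.

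No ligand of these receptors was well expressed. IGF1 and insulin (INS) were listed at 0 in both libraries, which allows up to 3 read pairs of either gene in each library. IGF2 stood at 0.127 FPKM in the D16 library and 0.181 FPKM in the control library, and the interval of its ratio, 0.369 to 1.39, included 1.

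Of 101 other genes of the pathway, chosen with earlier results known, 75 averaged 1 FPKM or more. On the log2(FPKM + 1) scale, which all counts of 2-fold differences below use, 1 of the 75 was higher by 2-fold or more and 3 were lower by that much, beside 3.63% and 3.97% of all genes, and the median log2 difference of the 75 was 0.03. Proteases that cut the binding proteins and the inhibitors of those proteases lay below 0 in 5 of 5 measured members (4 of 5 with equal sums), beside 5104 of 11830 genes in all (3832 with equal sums), and 0 of the 5 were 2-fold lower on the log2(FPKM + 1) scale. HTRA1 came nearest, with -0.99 on that scale, at 14.7 FPKM with D16 and 30.1 FPKM in the control, which is 2.05-fold lower without the added 1 FPKM. It was followed by ADAM9 (28.9 FPKM with D16 and 40.7 FPKM in the control), CTSD (145 FPKM with D16 and 192 FPKM in the control) and HTRA3 (1.06 FPKM with D16 and 1.57 FPKM in the control). PAPPA, the protease that cleaves IGFBP4 in the presence of IGFs, averaged under 1 FPKM and was named after its values were seen. It stood at 0.285 FPKM with D16 and 1.22 FPKM in the control, a ratio of 0.234 (95% interval 0.179 to 0.304), close to that of IGFBP4.

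Proteins related to the binding proteins had 5 of 6 measured members below 0 (4 of 6 with equal sums), HTRA1 among them, beside the same 5104 of all genes (3832 with equal sums). CCN3, a matrix protein, was the one past 2-fold on the log2(FPKM + 1) scale, at 0.766 FPKM with D16 and 3.84 FPKM in the control. CCN2 stood at 168 FPKM with D16 and 269 FPKM in the control, and KAZALD1 at 1.23 FPKM with D16 and 2.32 FPKM in the control. Among carriers and cell-surface partners, 4 of 7 lay below 0 (4 of 7 with equal sums), and 0 of 7 were 2-fold apart on the log2(FPKM + 1) scale. LRP1, a scavenger receptor that binds IGFBP3, stood at 1.04 FPKM with D16 and 2.76 FPKM in the control, 2.64-fold lower without the added 1 FPKM. The integrin chain ITGAV stood at 5.00 FPKM with D16 and 7.94 FPKM in the control, ITGA5 at 17.1 FPKM with D16 and 22.7 FPKM in the control, and caveolin CAV1 at 73.7 FPKM with D16 and 55.1 FPKM in the control.

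Of the genes for receptor maturation and turnover, 6 of 8 lay above 0 (7 of 8 with equal sums), beside 6726 of all 11830 genes (7998 with equal sums). M6PR, the cation-dependent receptor that sorts lysosomal enzymes beside IGF2R, was the one past 2-fold on the log2(FPKM + 1) scale. It stood at 34.0 FPKM with D16 and 10.4 FPKM in the control, a ratio of 3.26 (95% interval 3.01 to 3.53), where IGF2R had 0.969. The ubiquitin ligases NEDD4 (6.37 FPKM with D16 and 2.83 FPKM in the control, a ratio of 2.25) and CBL (8.77 FPKM with D16 and 5.97 FPKM in the control) and the protease PCSK7 (1.77 FPKM with D16 and 1.03 FPKM in the control) came next. Of the proteins that bind IGF2 mRNA, IGF2BP2 stood at 28.5 FPKM with D16 and 18.3 FPKM in the control, and IGF2BP3 at 4.73 FPKM with D16 and 4.49 FPKM in the control.

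Adaptors and brakes of the receptors had 9 of 15 measured members above 0 (9 of 15 with equal sums), beside 6726 of all 11830 genes (7998 with equal sums). On the log2(FPKM + 1) scale, 0 of the 15 were 2-fold apart. The feedback inhibitor SOCS2 stood at 0.442 FPKM with D16 and 1.77 FPKM in the control, a ratio of 0.25 without the added 1 FPKM (95% interval 0.190 to 0.336). The receptor substrate IRS1 stood at 4.93 FPKM with D16 and 9.52 FPKM in the control. SHC1 (61.1 FPKM with D16 and 36.8 FPKM in the control) and GRB2 (36.1 FPKM with D16 and 23.2 FPKM in the control), adaptors to the Ras pathway, differed the other way. The PI3K, AKT and mTOR arm had 11 of 21 measured members above 0 (15 of 21 with equal sums). Of the 21, 1 was lower by 2-fold or more on the log2(FPKM + 1) scale, the regulatory subunit PIK3R2. It stood at 0.472 FPKM with D16 and 15.8 FPKM in the control. An unnamed gene model on the same strand, AC007192, overlaps it and stood at 4.44 FPKM with D16 and 0.0173 FPKM in the control. Without the added 1 FPKM, the D16 level was 33.4-fold lower for PIK3R2 alone and 3.22-fold lower with the counts of both summed. The kinase PDPK1 stood at 1.54 FPKM with D16 and 3.57 FPKM in the control, 2.32-fold lower without the added 1 FPKM. PIK3R3 stood at 1.87 FPKM with D16 and 0.906 FPKM in the control, a ratio of 2.07, and GSK3A at 29.9 FPKM with D16 and 18.4 FPKM in the control.

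Insulin is known to hold down IGFBP1 through FOXO factors. The list of FOXO factors and genes held down by insulin signalling had 7 of 12 measured members above 0, beside 6726 of all 11830 genes. With equal sums it had 8 of 12 above 0, beside 7998 of all genes, and after centring 4 of 12, beside 5187 of all genes. As deposited, FOXO1, FOXO3 and FOXO4, the FOXO factors averaging 1 FPKM or more, lay above 0, so this count does not describe the held-down genes alone. FOXO6 averaged under 1 FPKM, was not counted and was named after its values were seen. It went the other way, with a ratio of 0.411 (95% interval 0.24 to 0.696). TXNIP, an inhibitor of thioredoxin, was the one past 2-fold on the log2(FPKM + 1) scale, at 50.9 FPKM with D16 and 176 FPKM in the control. TRIB1 stood at 2.64 FPKM with D16 and 5.69 FPKM in the control, a ratio of 0.464, CCNG2 at 4.30 FPKM with D16 and 6.80 FPKM in the control, and FOXO1 at 1.70 FPKM with D16 and 0.942 FPKM in the control. The other held-down genes averaging 1 FPKM or more, named after their values were seen, went both ways. SESN3, BCL6, SESN1 and KLF15 lay above 0 as deposited, with ratios of 1.64, 1.31, 1.25 and 1.11. PDK4 and CITED2 lay below 0, with ratios of 0.843 and 0.915. IGFBP1 and INSR, both known as FOXO targets, had ratios of 0.215 and 1.15. The part of FOXO factors or insulin signalling in these differences was not tested.

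**Figure D5:**
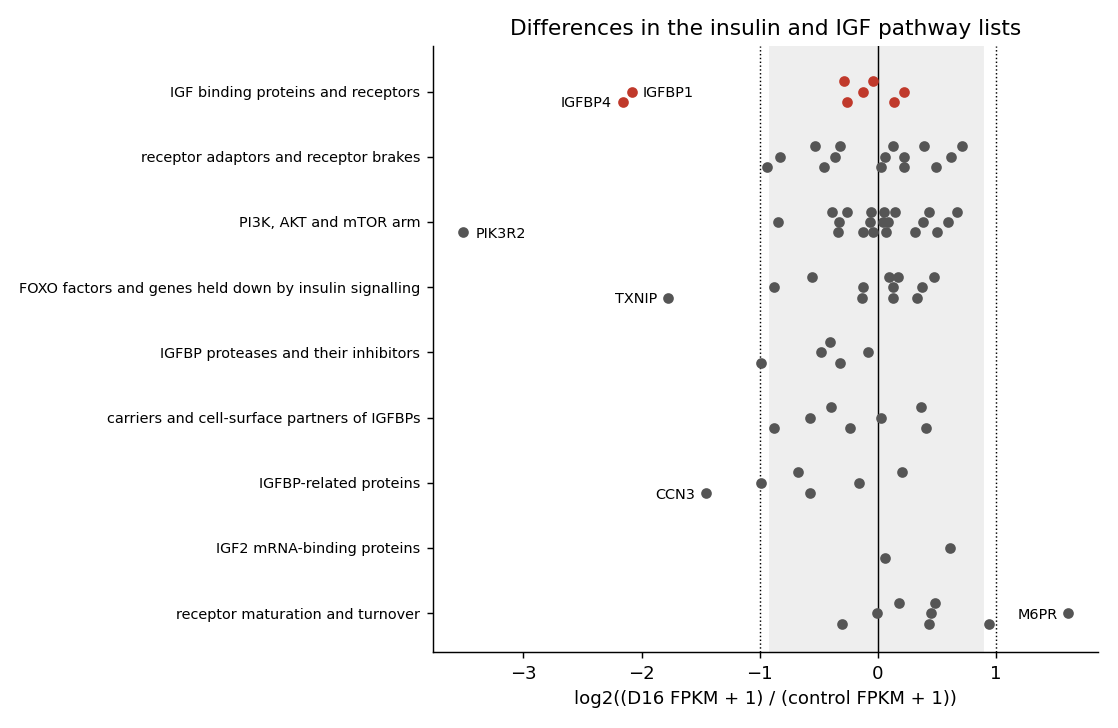
Log2((D16 FPKM + 1) / (control FPKM + 1)) of each gene averaging 1 FPKM or more, with the binding proteins and receptors in the top row and the pathway lists below. Dotted lines mark 2-fold, genes past it are named, and the grey band holds the values from -0.91 to 0.89 between percentiles 5 and 95 of all genes.

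Fibroblasts are a known source of IGF binding proteins, and 2 of 7 markers of fibroblasts averaged 1 FPKM or more. The 7 markers summed to 5.17 FPKM with D16 and 6.39 FPKM in the control, with COL1A1 highest at 2.46 FPKM with D16 and 2.72 FPKM in the control, DCN at 0.229 FPKM with D16 and 0.227 FPKM in the control, and PDGFRB at 0.301 FPKM with D16 and 1.02 FPKM in the control. Among blood cell markers, CD68 did so, at 75.5 FPKM with D16 and 61.6 FPKM in the control, while CD3E was listed at 0 in both. PTPRC stood at 0.00935 FPKM with D16 and 0.0540 FPKM in the control. The part of these markers in the results on binding proteins was not tested.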

How the data were processed

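MDA-MB-231 RNA came from 1 culture given 24 µM D16 for 48 h and 1 control culture. Per the labels' protocols, it was extracted with TRIzol and made into strand-marked libraries read from both ends. The submitters' processing notes list StringTie 1.3.4d, HISAT2 2.0.4 and cutadapt 1.9 without saying what each did. A genome build was not given in the sources used here. GENCODE release 29 on GRCh38 held 58394 of the gene identifiers, and the ends of the 10 genes lay within 600 bp of it.

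The FPKM values were deposited by the authors, and their entry for an absent gene, 0.0001, was set to 0. The estimated counts were deposited by the authors as whole numbers, and how they were made is not stated. Low counts pile up at multiples of 4 (1308 control genes had 4 counts, 473 had 3 and 254 had 5), so a read pair was taken to be 4 counts. The D16 over control ratio was the same in both units, within 1% and after a common factor of 0.962, for 98.4% of 13018 genes of 100 counts or more per library. Intervals are exact bounds of the D16 share of read pairs, turned into a ratio and multiplied by that factor. Reads are not independent molecules, so counting error is all that the intervals and the 3 read pair floor cover.

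Differences were log2((D16 FPKM + 1) / (control FPKM + 1)). This understates changes of low genes. Folds beside FPKM values have no pseudocount. The genes, the lists and the rules were chosen with earlier results of these data known. Named were the 10 genes, the 3 ligands and, of each other list, up to 4 genes with the largest difference averaging 1 FPKM or more. The checked alternatives were other pseudocounts, filters, thresholds and scalings, edgeR's TMM on rounded counts, and sums over overlapping genes. The steps were run on simulated data with planted changes and counting error only. That simulation assumed 4 counts per read pair and no common factor, so it checks neither of these nor variation between libraries. One blood cell marker is not reported here. Not used were tables of Gene Ontology terms, a sheet of a few numbers and a list of top genes with 8 columns marked + or -, whose meaning was not examined. Python 3.11.15, numpy 2.4.6, pandas 2.3.3, scipy 1.17.1, R 4.3.3 and edgeR 4.0.16 were used.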

Additional observations from a re-analysis of the deposited data

How the results depend on the processing

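With 1 library per group, replicate variation cannot be set apart from the difference between groups, and depth limits IGFBP2, IGFBP5 and IGF2. No paired analysis was possible because each group has 1 library. The counts of 2 lower and 0 higher binding proteins and receptors were the same under all 10 alternatives. Of 60 log2 differences recomputed for the 10 genes, 46 stayed within the counting interval, 14 moved and 0 of the called ones changed sign. Ratios taken from counts per total count stayed within it for all 10 genes. Intervals on undivided counts leave the ratio itself as it was. Summing overlapping genes on the same strand added counts only for IGF2R, whose ratio stayed within its interval. The median log2 difference of -0.19 was -0.11 at a pseudocount of 5 FPKM, -0.031 with equal sums and -0.34 after centring; equal sums and centring move all genes, by a median of 0.15 and -0.15.

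The pathway count of 1 higher became 2 at a pseudocount of 0.1 FPKM, with equal sums and with TMM, and 7 at 1.5-fold. The count of 3 lower became 8 at a pseudocount of 0.1 FPKM and with TMM, 7 after centring and 10 at 1.5-fold. The TMM setting used counts scaled to library size but not to transcript length, so it changed the unit as well as the scale. It moved the median log2 difference of all genes by only -0.0076. Its counts of genes 2-fold apart therefore cannot be credited to the scaling alone. Over all genes, 430 higher and 470 lower became 717 and 847 at a pseudocount of 0.1 FPKM, 150 and 139 at 5 FPKM, 280 and 234 among genes averaging 5 FPKM or more, and 1563 and 1296 at 1.5-fold. TMM gave 742 lower, and equal sums 680 higher. The higher share was 47.8% as deposited, 66.5% with equal sums (680 higher, 342 lower) and 31.0% after centring (303 higher, 675 lower). The ratio of PIK3R2 was 0.0299 alone and 0.311 summed with the overlapping model, an alternative chosen after the data were seen.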

Other observations

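Genes beside the binding proteins and receptors were looked up after the table had been seen, as the nearest gene on each side averaging 1 FPKM or more. Of 16 such neighbours outside the 10 genes, 3 were lower by 2-fold or more and 0 were higher by that much on the log2(FPKM + 1) scale, beside 3.97% and 3.63% of all genes. ZNF557, beside INSR, came nearest to higher, at 2.61 FPKM with D16 and 0.842 FPKM in the control, a ratio of 3.10 without the added 1 FPKM. Both neighbours of IGFBP4 were among the 3. TOP2A, a topoisomerase of dividing cells that lies 25553 bp away, stood at 38.4 FPKM with D16 and 82.6 FPKM in the control, 2.15-fold lower without the added 1 FPKM. TNS4, a tensin of focal adhesions that lies 18102 bp away on the other side, stood at 1.67 FPKM with D16 and 11.5 FPKM in the control, 6.89-fold lower. The third, TNS3, another tensin, lies 1353879 bp from IGFBP3 and stood at 3.24 FPKM with D16 and 9.82 FPKM in the control. SEPTIN7P2, the nearest such gene to IGFBP1 apart from IGFBP3, stood at 2.32 FPKM with D16 and 2.28 FPKM in the control.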
